A study of Mus musculus with 8 samples.

Results

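The transcription factors Atoh1, Gfi1, Spdef, Klf4, Xbp1, Bhlha15, Creb3l1 and Creb3l4 act along the secretory lineage of the intestine. Their RNA was followed in Paneth cells sorted from mice with heterozygous or homozygous loss of the histone methyltransferase Mll1. The 8 genes were taken by symbol from the 53801 genes of the count table, and all 8 passed the filter on low counts that left 13439 genes for testing. Both groups were mice with the β-cat GOF allele, a stabilized β-catenin that keeps Wnt signalling high. Controls were β-cat GOF; Mll1+/- and knockouts were β-cat GOF; Mll1-/-, with 4 mice and 4 libraries in each group, so the controls also lacked a copy of Mll1. Mice aged 4 to 6 wk received 1 mg tamoxifen on each of 3 consecutive days, and viable EpCAM+ Cd24+ cells of the small intestine were collected by FACS 10 d after induction, 300 per library. According to the study's methods, Cre was driven by the Lgr5 promoter, which marks crypt stem cells. The study describes recombination by this Cre as a mosaic, with non-recombined crypts beside mutant ones. The sort as described used no marker of recombined cells, and the counts do not give the share of such cells in a pool. The methods paragraph on the sorting leaves the β-cat GOF allele out, whereas the series design and the results name it in both groups.

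Secretory cells of the intestine arise where Notch signalling is low and Atoh1 can be expressed. Atoh1 switches on Gfi1, and Spdef and Klf4 act later, in the maturation of goblet and Paneth cells. Xbp1, Bhlha15 and the Creb3 relatives serve the endoplasmic reticulum (ER) and the secretory granules, which Paneth cells need for the large amounts of antimicrobial protein they release. Xbp1 is the bZIP factor of the unfolded protein response and is known to activate Bhlha15 in other secretory cells.

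Total counts were between 13037832 and 14380240 per library, and 3 counts correspond to 0.172 to 0.352 normalized CPM (CPM on the TMM-adjusted library size). All 10 Paneth markers were detected in every group, and their summed level was 269000 to 536000 normalized CPM in controls and 246000 to 761000 in knockouts. Knockout 3 stood apart from the other libraries. It had a count on 19662 genes against 22623 to 26074 elsewhere, 2.04% mitochondrial counts against 3.26% to 8.78%, a TMM factor of 0.632 against 0.822 to 1.34, and the Paneth marker sum of 761000, where the other knockouts lay between 246000 and 333000. The values of the 8 factors and the medians of the gene lists are therefore given with and without this library. The counted reads of the targeted gene, Kmt2a (ENSMUSG00000002028), which encodes Mll1, did not separate the groups, with 45.1, 37.2, 24.1 and 22.4 normalized CPM in controls 1 to 4 and 31.1, 25.7, 38.5 and 28.4 in knockouts 1 to 4 (log2 fold change −0.06, standard error 0.24, edgeR adjusted p = 0.995). These counts run over all exons and do not show whether the targeted part was deleted. In sorted pools, a change in RNA per cell and a change in the cells that make up the pool cannot be told apart.

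The 8 factors spanned a wide range of RNA levels. Per kb of exon, the mean over the 8 libraries was 31.5 normalized CPM for Xbp1, higher than 96.1% of the tested genes. Atoh1 followed with 19.3, Creb3l4 with 16.7, Klf4 with 10.7, Spdef with 8.94, Creb3l1 with 7.45 and Bhlha15 with 6.45 normalized CPM per kb. Gfi1 was the lowest with 1.20 normalized CPM per kb, at the 43.2 percentile of tested genes, whereas the other 7 lay at the 83.8 percentile or above. In the controls alone, Xbp1 (29.2 ± 5.59 normalized CPM per kb, SD, n = 4) lay above Atoh1 (18.1 ± 4.30) by more than both SDs together, and Gfi1 (1.24 ± 0.448) lay below all others by the same measure. The neighbours between them, from Atoh1 through Creb3l4 (14.0 ± 4.93), Klf4 (10.8 ± 2.42), Spdef (8.61 ± 2.81) and Bhlha15 (7.58 ± 1.58) to Creb3l1 (6.70 ± 1.65), did not differ beyond their SDs. Bhlha15 stood above Creb3l1 in the controls and below it in the knockouts, where their levels were 5.31 ± 1.6 and 8.21 ± 3.71 normalized CPM per kb.

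None of the 8 factors was called between the genotypes by edgeR's quasi-likelihood test, DESeq2 or limma-voom. A call needed an adjusted p no higher than 0.05 together with a log2 change, up or down, no smaller than 0.5. Of all tested genes, edgeR called 0.186%. For the related gene lists that follow, calls are those of edgeR with all libraries unless another tool or setting is named, and the genes that only other tools or settings called were chosen after their values were seen. The edgeR fit without a filter on low counts called 290 of 37039 genes, against 25 of 13439 in the main fit. Calls made by that fit are therefore to be read with caution. Bhlha15 alone reached an unadjusted p under 0.05, a level that 6.88% of all tested genes reached. It stayed under that level in 7 of 16 alternative settings and lost it in the other 9, with a p of 0.0561 with DESeq2's size factors, 0.0576 with DESeq2's Wald test and 0.206 on total counts. In no factor were all knockouts above or all below the controls, a separation that 4.52% of tested genes showed. Of the fold changes, 5 were above 0 and 3 below, with a median of 0.14 on the log2 scale against 0.01 over all tested genes. Without knockout 3, all 8 fold changes were below 0, with a median of −0.19 against −0.01 over all genes. The Paneth markers shifted beside them, and their median log2 fold change was −0.02 with all libraries and −0.58 without knockout 3, when 9 of 10 were below 0. The part of Paneth cell content in these shifts was not tested. The direction also depended on the scaling: with total counts in place of TMM factors, the median of all tested genes shifted to 0.25 and that of the 8 factors to 0.26, with 7 of 8 above 0.

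**Figure D1:**
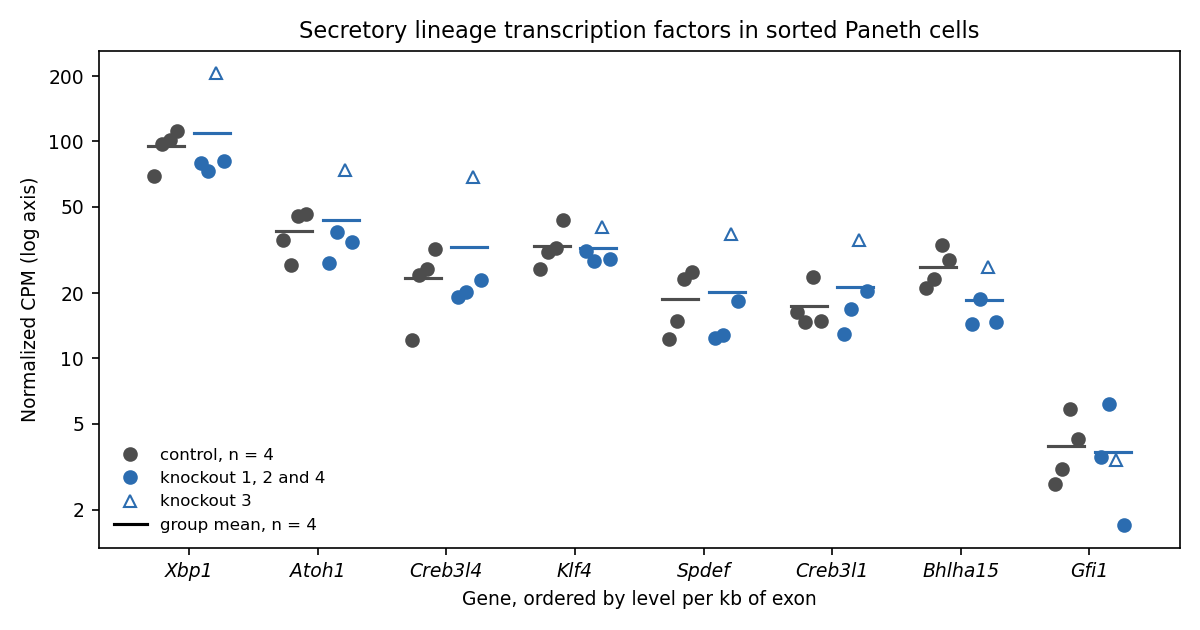
Normalized CPM (log axis) of the 8 secretory lineage transcription factors in each library, with controls in grey, knockouts in blue, knockout 3 as an open triangle and a line at the mean of each group (n = 4). The groups overlap in every gene, and knockout 3 lies above all other libraries in Atoh1, Spdef, Xbp1, Creb3l1 and Creb3l4.

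Atoh1 is the bHLH factor on which all secretory lineages of the intestine depend. The gene (ENSMUSG00000073043) lies on the plus strand of chromosome 6 from 64729125 to 64731245 in mm10. Its level was 35.3, 27.0, 45.1 and 46.4 normalized CPM in controls 1 to 4 and 27.5, 38.2, 74.1 and 34.5 in knockouts 1 to 4. Apart from knockout 3, the knockouts lay within the range of the controls. On total counts, knockouts 2, 3 and 4 lay above all controls (51.1, 46.9 and 42 CPM against 24.7 to 40.9). Between the groups, the log2 fold change was 0.18 (standard error 0.30, edgeR adjusted p = 0.974), and the 95% interval of the ratio of knockouts to controls reached from 0.720 to 1.77. Without knockout 3 the log2 fold change was −0.21 (95% interval −0.65 to 0.24).

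Gfi1, a zinc finger DNA-binding protein, was low in both groups. The gene (ENSMUSG00000029275) lies on the minus strand of chromosome 5 from 107716657 to 107726036, and 3.2% of its exon bases overlap A430072P03Rik on the other strand, which received only 1 to 7 counts per library. Gfi1 reached 2.63, 3.09, 5.83 and 4.26 normalized CPM in controls 1 to 4 and 3.50, 6.14, 3.41 and 1.70 in knockouts 1 to 4, from 28 to 107 counts per library. Both the highest and the lowest library were knockouts. The log2 fold change was −0.09 (standard error 0.42, edgeR adjusted p = 0.995). The ratio could lie anywhere from 0.498 to 1.77 (95% interval), a wide range. The mean log2 difference was 0.62 between knockouts 1 and 2 and controls 1 and 2, and −0.91 between knockouts 3 and 4 and controls 3 and 4, which carry another run of label numbers. Without knockout 3 the log2 fold change of Gfi1 was −0.06 (95% interval −0.98 to 0.87).

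Notch signalling restrains Atoh1 through the repressor Hes1. Of 12 genes of the Notch pathway 10 were tested, edgeR called none, and 5 were above 0 and 5 below (median log2 fold change 0.00, and 0.11 without knockout 3). Hes1 (27.5 normalized CPM per kb) had 46.1, 29.0, 31.1 and 35.7 normalized CPM in controls 1 to 4 and 88.7, 85.7, 22.6 and 109 in knockouts 1 to 4. Knockouts 1, 2 and 4 lay above every control, whereas knockout 3 was the lowest of the 8 libraries. Its log2 fold change was 1.11 (standard error 0.38, edgeR adjusted p = 0.502), and Hes1 rose by 1.41 without knockout 3 (edgeR adjusted p = 0.00238). With all libraries Hes1 was called by limma-voom (1.32, adjusted p = 0.0265) and by edgeR without a filter on low counts (1.13, adjusted p = 0.000361). Hes6 (6.21 normalized CPM per kb), which counters Hes1, was at a log2 fold change of 0.26 (edgeR adjusted p = 0.914). Atoh1 was not called in the same comparisons.

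Atoh1 binds DNA as a dimer with E proteins, and Id proteins take E proteins away. All 7 genes of this group were tested, edgeR called none with all libraries, and 6 had a log2 fold change above 0 (median 0.46, and 0.78 without knockout 3). Tcf4, an E protein, had 28.4, 25.9, 31.1 and 28.4 normalized CPM in controls 1 to 4 and 62.6, 72.8, 51.3 and 43.7 in knockouts 1 to 4. Every knockout lay above every control, by 1.02 on the log2 scale (standard error 0.19, edgeR adjusted p = 0.0707). With the same libraries, Tcf4 was called by DESeq2 (1.02, adjusted p = 0.000224) and limma-voom (1.09, adjusted p = 0.00864), and by edgeR without a filter on low counts (1.02, adjusted p = 0.00104), which also called the inhibitor Id3 (0.87, adjusted p = 0.0282). Without knockout 3, edgeR called Tcf4 (log2 fold change 1.07, edgeR adjusted p = 0.0146) and Id3 (1.15, adjusted p = 0.0187). With all libraries, Id3 (14.5 normalized CPM per kb) was at a log2 fold change of 0.86 (edgeR adjusted p = 0.68) and Id1 (14.0 normalized CPM per kb) at −0.33 (adjusted p = 0.965).

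Spdef is an ETS factor that promotes the maturation of goblet and Paneth cells. The gene (ENSMUSG00000024215) lies on the minus strand of chromosome 17 from 27714352 to 27728951. Its level was 12.3, 14.9, 23.2 and 24.9 normalized CPM in controls 1 to 4 and 12.4, 12.8, 37.6 and 18.4 in knockouts 1 to 4. Libraries 1 and 2 were lower than libraries 3 and 4 in both groups. Its log2 fold change was 0.10 (standard error 0.36, edgeR adjusted p = 0.993) and −0.38 without knockout 3 (95% interval −0.95 to 0.20). The ratio of Spdef to Atoh1, each per kb, was 0.473 ± 0.0908 in controls and 0.442 ± 0.0857 in knockouts (SD, n = 4, two-sided exact permutation p = 0.486, where 0.0286 is the smallest p possible).

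Klf4, a zinc finger factor known for the terminal differentiation of goblet cells, had the narrowest interval of the 8 factors. The gene (ENSMUSG00000003032) lies on the minus strand of chromosome 4 from 55527143 to 55532466. Its level was 25.8, 30.8, 32.1 and 43.3 normalized CPM in controls 1 to 4 and 31.3, 28.0, 40.4 and 28.8 in knockouts 1 to 4, so that every knockout lay within the range of the controls. On total counts, knockout 1 (40.1 CPM) lay above and knockout 3 (25.5 CPM) below the controls (26.4 to 38.2 CPM). The log2 fold change was −0.04 (standard error 0.20, edgeR adjusted p = 0.995), and the ratio lay between 0.717 and 1.32 (95% interval). Without knockout 3 the log2 fold change was −0.17 (95% interval −0.57 to 0.23). The immediate early genes are rapidly induced when tissue is dissociated, as Klf4 can be. Of 15 such genes edgeR called none, 13 had a log2 fold change above 0 (median 0.50) and 5 reached an unadjusted p under 0.05, all 5 higher. Of all tested genes 6.88% reached that p, in either direction. Without knockout 3, 11 were above 0 and 4 below, with a median of 0.29. Nr4a1 (log2 fold change 1.18, standard error 0.36, edgeR adjusted p = 0.422) and Klf6 (0.66, standard error 0.22, adjusted p = 0.484) were higher in every knockout than in every control. Groups were separated in 4.52% of all tested genes, in either direction. Without a filter on low counts, edgeR called Nr4a1 (1.17, adjusted p = 0.00119) and Atf3 (1.15, adjusted p = 0.000117). The most abundant of them per kb, Fos (77.1 normalized CPM per kb) and Egr1 (28.4), had log2 fold changes of 0.10 and 0.66 (edgeR adjusted p = 0.987 and 0.729).

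Of 8 goblet genes known to depend on Spdef or Klf4, none was called, and 4 were above 0 and 4 below (median log2 fold change 0.00). Without knockout 3, 6 of the 8 were below 0, with a median of −0.27. The most abundant, Spink4, had a mean of 9450 ± 2740 normalized CPM in controls and 9270 ± 3900 in knockouts (SD, n = 4, log2 fold change −0.03, edgeR adjusted p = 0.997). For the trefoil factor Tff3 the log2 fold change was −0.38 (edgeR adjusted p = 0.929). The other 6 are given in full. Clca1, Muc2, Agr2 and Galnt12 were at 0.76, 0.19, 0.17 and 0.04 on the log2 scale (edgeR adjusted p = 0.979, 0.974, 0.985 and 0.995), and the secreted proteins Fcgbp and Zg16 at −2.24 and −5.05 (adjusted p = 0.361 and 0.68). Zg16, Fcgbp and Clca1 depended on control 3, with 303, 266 and 71.2 normalized CPM against 1.51 to 49.4, 17.9 to 87.5 and 0.317 to 9.00 in the other controls. Without it the log2 fold changes were −2.82, −1.40 and 2.85 (edgeR adjusted p = 0.874, 0.638 and 0.727).

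Xbp1 was the most abundant of the 8 factors. The gene (ENSMUSG00000020484) lies on the plus strand of chromosome 11 from 5520659 to 5525893. Its level was 69.3, 97.3, 101 and 112 normalized CPM in controls 1 to 4 and 79.4, 72.9, 206 and 81.1 in knockouts 1 to 4. The 3 other knockouts lay close together and within the range of the controls, and knockout 3 lay far above all libraries. The log2 fold change was 0.21 (standard error 0.32, edgeR adjusted p = 0.97) with all libraries and −0.29 without knockout 3 (95% interval −0.66 to 0.08). The counts sum the spliced and unspliced forms of the Xbp1 message and carry no measure of its activation.

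The known targets of Xbp1 were examined next. All 16 were tested, none was called or reached an unadjusted p under 0.05, and their log2 fold changes lay between −0.20 and 0.48 (median −0.05, with 7 above 0 and 9 below). Serp1, which stabilizes membrane proteins during ER stress, had 72.3 normalized CPM per kb and differed by −0.05 on the log2 scale (standard error 0.23, edgeR adjusted p = 0.995). Sec61b, a subunit of the ER translocon, had 71.0 normalized CPM per kb and differed by 0.13 (standard error 0.17, adjusted p = 0.966). The summed level of the 16 targets was 2090 normalized CPM in knockout 3 and 1220 to 1400 in the other knockouts, against 1180 to 1980 in the controls. The direction of the targets turned with the settings, since 15 of 16 were below 0 without knockout 3 (median −0.19) and 15 of 16 above 0 on total counts (median 0.15, against 0.25 over all genes). The ER stress sensors, proteases and remaining Creb3 relatives showed 11 tested genes of 12 and none called, with log2 fold changes from −0.49 to 0.40 (median 0.10, and −0.02 without knockout 3, when all 12 were tested). Among them, Atf4, the factor of the integrated stress response, had 37.6 normalized CPM per kb and differed by 0.02 on the log2 scale (edgeR adjusted p = 0.997), and Ern2, the epithelial form of the Ire1 sensor that splices Xbp1, had 11.6 normalized CPM per kb and differed by 0.40 (adjusted p = 0.889).

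Bhlha15, also named Mist1, is a bHLH factor that enlarges the granule apparatus of secretory cells, and it came nearest to a difference between the genotypes. The gene (ENSMUSG00000052271) lies on the plus strand of chromosome 5 from 144190286 to 144194441. Its level was 21, 23.2, 33.4 and 28.3 normalized CPM in controls 1 to 4 and 14.4, 18.7, 26.4 and 14.7 in knockouts 1 to 4. Knockouts 1, 2 and 4 lay below every control, and knockout 3 lay within the control range. The controls averaged 26.5 ± 5.53 and the knockouts 18.6 ± 5.60 (SD, n = 4). The log2 fold change was −0.52 (standard error 0.24), with a 95% interval of the ratio from 0.488 to 0.999, an unadjusted edgeR p of 0.0497 and an adjusted p of 0.724. The two-sided exact permutation p was 0.114. The mean log2 difference was −0.42 for libraries 1 and 2 and −0.63 for libraries 3 and 4, so that both runs of label numbers gave the same direction on TMM-scaled levels. On total counts, libraries 1 and 2 had 24.1 and 21.3 CPM in controls and 18.5 and 25.0 CPM in knockouts. Without knockout 3, every remaining knockout lay below every control. This held for 4.67% of the genes tested then, and 11.3% were separated in either direction. The log2 fold change of Bhlha15 was then −0.73 (standard error 0.20) at an unadjusted edgeR p of 0.00297 and an adjusted p of 0.137, still short of a call. An unadjusted p under 0.05 was reached by 11.3% of genes in that fit. On total counts the log2 fold change was −0.33 (edgeR adjusted p = 0.889), against a median of 0.25 over all genes, and it was then knockout 2 (25.0 CPM) that lay among the controls (21.3 to 27.4 CPM), while knockout 3 was the lowest library (16.7 CPM).

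Relative to Xbp1, Bhlha15 was lower in the knockouts except for knockout 2. The ratio of Bhlha15 to Xbp1, each per kb and independent of the library scaling, was 0.282, 0.222, 0.307 and 0.236 in controls 1 to 4 and 0.169, 0.239, 0.119 and 0.168 in knockouts 1 to 4. Its lowest value belonged to knockout 3, in which Bhlha15 itself was the highest of the knockouts on TMM-scaled levels and the lowest on total counts. The means were 0.262 ± 0.0394 and 0.174 ± 0.0491 (SD, n = 4, two-sided exact permutation p = 0.0857). Of 4 genes known as Bhlha15 targets 3 were tested and none was called. Rab3d, a small GTPase of secretory granules, had a mean of 53.0 ± 12.5 normalized CPM in controls and 48.8 ± 11.8 in knockouts (SD, n = 4, log2 fold change −0.12, edgeR adjusted p = 0.982), and the gap junction gene Gjb1 differed by 0.02 on the log2 scale (adjusted p = 0.997). The third, Atp2c2, was at −0.40 (edgeR adjusted p = 0.889). Without knockout 3 all 3 were below 0, with a median of −0.30.

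The ER-bound bZIP factors Creb3l1 and Creb3l4 are released from the membrane by cleavage, and Creb3l1 is known for the maturation of goblet cells. Creb3l1 (ENSMUSG00000027230) lies on the minus strand of chromosome 2 from 91982328 to 92024502. Its level was 16.4, 14.7, 23.8 and 14.8 normalized CPM in controls 1 to 4 and 13.0, 16.8, 35.1 and 20.5 in knockouts 1 to 4. For Creb3l1 the log2 fold change was 0.29 (standard error 0.30, edgeR adjusted p = 0.943) and −0.06 without knockout 3. Creb3l4 (ENSMUSG00000027938) lies on the minus strand of chromosome 3 from 90237500 to 90243512, with 12.1, 24.1, 25.8 and 31.9 normalized CPM in controls 1 to 4 and 19.1, 20.3, 68.8 and 22.9 in knockouts 1 to 4. On TMM-scaled levels knockout 3 was the highest library in both genes, and control 1 was the lowest in Creb3l4. On total counts knockout 3 stayed the highest in Creb3l4, but in Creb3l1 it had 22.2 CPM, below knockout 4 (24.9) and knockout 2 (22.5). The log2 fold change of Creb3l4 was 0.47 (standard error 0.42, edgeR adjusted p = 0.919), with a ratio between 0.732 and 2.64 (95% interval), the widest of the 8 on the upper side, and −0.18 without knockout 3. The ratio of Creb3l4 to Creb3l1, each per kb, was 2.18 ± 0.964 in controls and 2.23 ± 0.587 in knockouts (SD, n = 4, two-sided exact permutation p = 0.771).

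**Figure D2:**
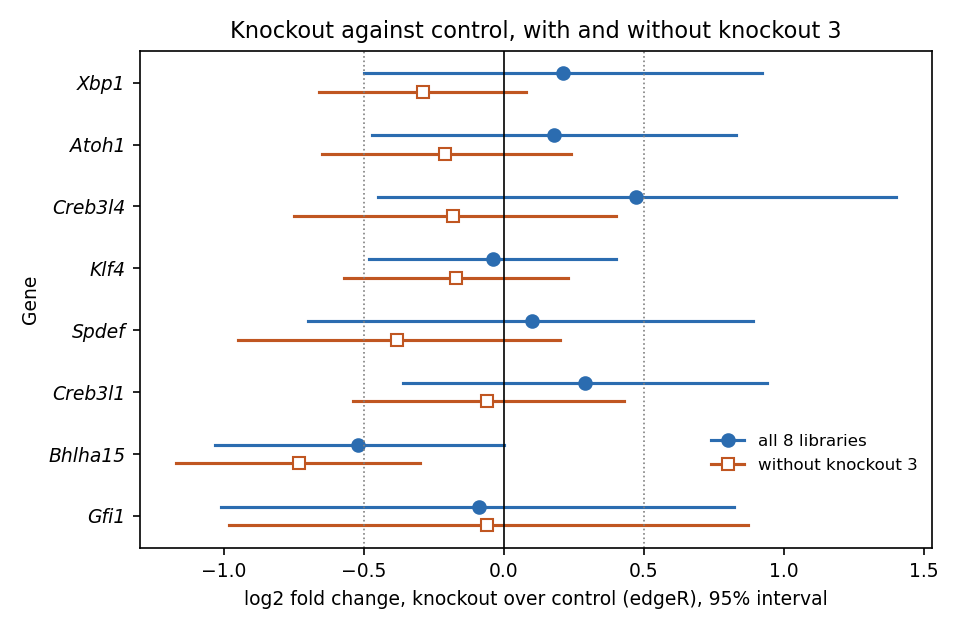
Log2 fold change of knockouts over controls with its 95% interval (edgeR) for each factor, with all 8 libraries (filled circles) and without knockout 3 (open squares). Dotted lines mark a change of 0.5 in either direction. With all libraries every point but Bhlha15 lies between −0.5 and 0.5, and without knockout 3 all 8 points lie below 0.

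Promoter sequences are shown for Bhlha15, the factor nearest to a difference, and for Creb3l4, the other factor in whose windows both CCACG and CAGATG were found. They are the 250 bases before the RefSeq start (GRCm38.p6, 5′ to 3′ on the strand of the gene), at chr5:144190036-144190285 on the plus strand and at chr3:90243144-90243393 on the minus strand, the second of 3 Creb3l4 windows. Capitals mark CCACG, the core bound by Xbp1 and Atf6 in ER stress elements, and the E-box CAGATG, on either strand.
Bhlha15: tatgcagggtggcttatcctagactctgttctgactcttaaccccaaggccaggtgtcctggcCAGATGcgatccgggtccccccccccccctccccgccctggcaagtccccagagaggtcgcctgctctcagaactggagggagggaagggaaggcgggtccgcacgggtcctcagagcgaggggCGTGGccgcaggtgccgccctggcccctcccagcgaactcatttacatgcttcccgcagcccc
Creb3l4: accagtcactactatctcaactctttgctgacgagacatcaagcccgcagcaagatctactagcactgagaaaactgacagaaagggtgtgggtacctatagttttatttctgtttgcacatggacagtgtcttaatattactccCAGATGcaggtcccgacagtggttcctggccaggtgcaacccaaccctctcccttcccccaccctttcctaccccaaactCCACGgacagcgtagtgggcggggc

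In the Bhlha15 window, CCACG begins 63 bases before the start, read on the other strand as CGTGG, and CAGATG begins 187 bases before it. In the Creb3l4 window they begin 25 and 105 bases before the start. RefSeq windows were matched for 7 of the 8 factors, 10 windows in all, and Creb3l1 was not matched. The letters CCACG were found in Klf4, Bhlha15 and 2 of the Creb3l4 windows, against 28.3% of all 32851 windows. CAGATG was found in Bhlha15 and Creb3l4 (14.4% of all windows), and the E-box CAGCTG in Klf4 (13.0% of all windows). TGACGTGG, the unfolded protein response element, which contains CCACG on its other strand, was in none of the 10 windows and in 0.6% of all windows. These matches are letters in a window and do not show binding.

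Among 17 other transcription factors of crypt lineages, most fold changes lay below 0. With all libraries edgeR called none, but 16 were below 0 (median log2 fold change −0.74 against 0.01 over all genes), 7 reached an unadjusted p under 0.05, all lower, and 5 were lower in every knockout than in every control. Over all tested genes, 6.88% reached that p and 4.52% were separated, each counted in either direction. Without knockout 3 the median was −0.46, with 16 again below 0 and 6 at an unadjusted p under 0.05, all lower. Of all genes tested then, 11.3% reached that p, in either direction. On total counts the median was −0.48, with 4 of 17 above 0. Neurod1, an enteroendocrine factor, had 24.8, 22.1, 56.9 and 42.1 normalized CPM in controls 1 to 4 and 12.5, 3.73, 5.40 and 8.43 in knockouts 1 to 4 (log2 fold change −2.27, standard error 0.40, edgeR adjusted p = 0.0629). Gata4, a factor of the proximal intestine, ranged from 7.27 to 8.73 normalized CPM in controls and from 2.70 to 4.11 in knockouts (log2 fold change −1.23, standard error 0.26, edgeR adjusted p = 0.144). Foxa1, a forkhead factor of endoderm, ranged from 24.4 to 29.8 normalized CPM in controls and from 13.8 to 17.0 in knockouts (log2 fold change −0.76, standard error 0.17, edgeR adjusted p = 0.15). With all libraries, DESeq2 called Neurod1 (−2.27, adjusted p = 9.65e-06), Insm1 (−1.78, adjusted p = 0.03), Gata4 (−1.23, adjusted p = 0.00204) and Foxa1 (−0.76, adjusted p = 0.00447), all lower. limma-voom called Neurod1, Gata4 and Foxa1 (adjusted p = 0.0487, 0.0156 and 0.0366), and edgeR called Neurod1 when at least 10 counts were required in every library (adjusted p = 0.0447). Without a filter edgeR called Neurod1 and Insm1 (adjusted p = 4.93e-16 and 5.83e-06). With the filter their edgeR adjusted p was 0.0629 and 0.338 at nearly the same fold changes, so these values reflect the setting. Without knockout 3, Gata4 fell by 1.33 and Foxa1 fell by 0.78 on the log2 scale (edgeR adjusted p = 0.0248 and 0.0424). The 2 most abundant per kb, Sox9, which Paneth cells require, and Klf5, had log2 fold changes of −0.11 and −0.43 (edgeR adjusted p = 0.97 and 0.783). The 17 include Neurog3, Neurod1, Pou2f3, Gfi1b and Ascl2, which also serve as markers of enteroendocrine, tuft and stem cells below.

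Markers of other crypt cells were set beside this group. With all libraries edgeR called no enteroendocrine marker, but 9 of 10 had a log2 fold change below 0 (median −1.61, and −1.78 without knockout 3) and none was at 0 counts throughout. Their summed level was 396 to 1400 normalized CPM in controls and 45.0 to 1850 in knockouts. The highest sum was that of knockout 3, and the other knockouts lay between 45.0 and 382. The hormone gene Gip ranged from 0.230 normalized CPM in knockout 2 to 1680 in knockout 3 (log2 fold change −0.42, edgeR adjusted p = 0.995). The hormone gene Sct was at −1.08 on the log2 scale (edgeR adjusted p = 0.531), the serotonin enzyme gene Tph1 at −3.92 (adjusted p = 0.316) and the factor Neurog3 at −1.96 (adjusted p = 0.577). Beside Neurod1, DESeq2 called Chga (−1.99, adjusted p = 0.0361), edgeR without a filter called Sct (−1.07, adjusted p = 0.000684), and edgeR without knockout 1 called Neurod1 (−2.63, adjusted p = 0.0363) and Tph1 (adjusted p = 0.00117). The fitted value of Tph1 then moved to −7.88, since knockout 1 held 3.15 normalized CPM and the other knockouts 0 to 0.121, and a value so near 0 counts depends on the prior count. All 7 tested tuft markers were below 0 (median −0.88, and −0.66 without knockout 3), among them Avil with −0.68 (edgeR adjusted p = 0.788), with sums of 155 to 487 normalized CPM in controls and 89.7 to 329 in knockouts. The part of these cells in the lower values of the other lineage factors was not tested.

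Goblet markers summed to 10500 to 20400 normalized CPM in controls and 9150 to 23100 in knockouts (median log2 fold change −0.03). The highest sum was that of knockout 3, and the other knockouts lay between 9150 and 12000. Without knockout 3, 7 of 9 goblet markers were below 0, with a median of −0.36. Of 8 stem markers 5 were below 0 (median −0.37, and −0.16 without knockout 3), with Olfm4 at −1.11 and Slc12a2 at −0.85 (edgeR adjusted p = 0.671 and 0.468) and Tnfrsf19 at 1.36 and Axin2 at 0.90 (adjusted p = 0.23 and 0.505). Tnfrsf19 was called higher by edgeR without knockout 3 (1.6, adjusted p = 0.00187), by DESeq2 (adjusted p = 0.0128) and by limma-voom (adjusted p = 0.00864), and Axin2 by limma-voom (1.17, adjusted p = 0.0357). Without a filter edgeR called Tnfrsf19 and Axin2 higher (adjusted p = 1.66e-05 and 0.0134) and Slc12a2 lower (adjusted p = 0.00879). Of 7 tested enterocyte markers 5 were below 0 (median −0.72, and −0.38 without knockout 3, when 8 were tested), with Fabp1, Fabp2 and Vil1 at −0.72, −1.07 and −0.42 (edgeR adjusted p = 0.945, 0.279 and 0.589). Fabp2 was called lower by DESeq2 (adjusted p = 0.0422), by limma-voom (adjusted p = 0.0294), by edgeR without a filter (adjusted p = 0.00156) and by edgeR without knockout 4 (adjusted p = 0.0238). Only 3 of 12 immune markers passed the filter (median −0.24, and −0.10 without knockout 3), with Lyz2 at −0.25 and Cd74 at −0.20 (edgeR adjusted p = 0.982 and 0.987), and 1 of 10 stromal markers, Pecam1 at 0.06 (adjusted p = 0.995, and −0.13 without knockout 3). The most abundant Paneth markers per kb were the defensins Defa24 and Defa17, at −0.16 and −0.22 (edgeR adjusted p = 0.989 and 0.974). Defensin genes have near-identical copies, so their unique counts are uncertain.

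**Figure D3:**
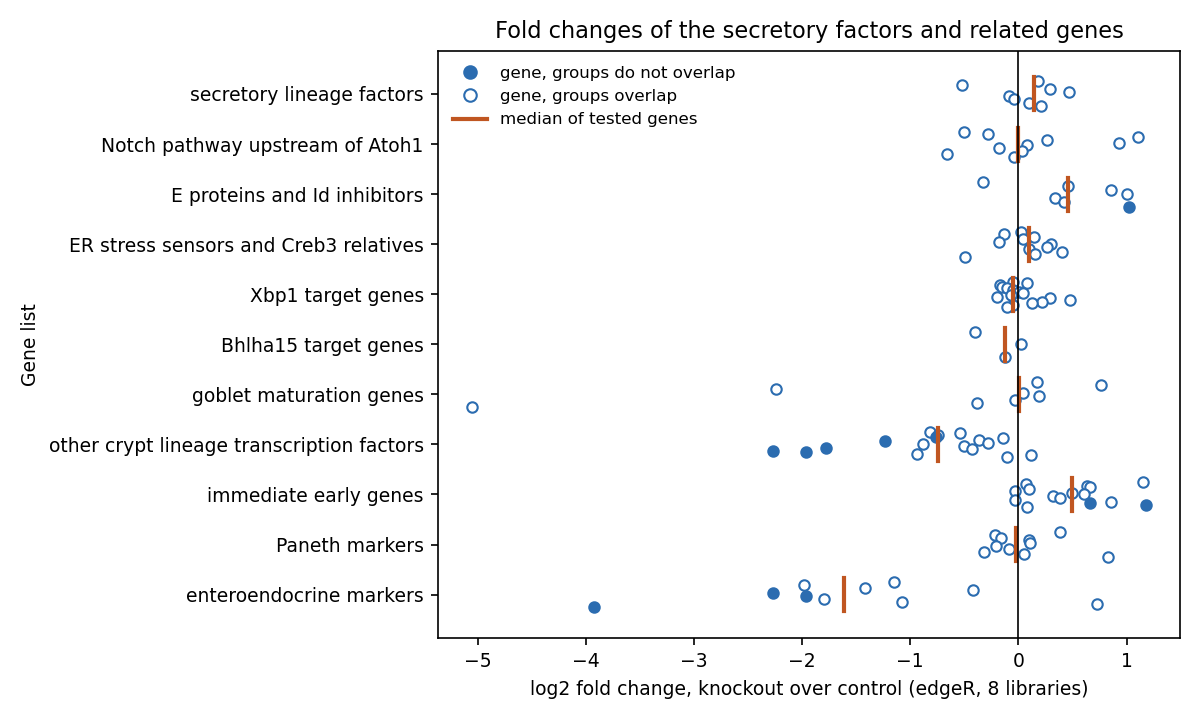
Log2 fold change of knockouts over controls (edgeR, 8 libraries) for the secretory lineage factors and 10 related gene lists; each point is a tested gene, filled where every knockout lies above or below every control, and the orange line is the median of the list. The secretory factors lie between −0.52 and 0.47 with no filled point, whereas the other crypt lineage factors have a median of −0.74 and 5 filled points. Of all tested genes 4.52% would be filled.

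The genes whose level followed each factor most closely over the 8 libraries were listed by Pearson's r of log2 values, as a description across libraries that share knockout 3. Xbp1 was followed most closely by Edem2, of ER-associated degradation (r = 0.992), and by Gadd45g (0.988). Creb3l4 was followed by Srpr, the receptor of the signal recognition particle (0.994), and by Tspan13 (0.984). Bhlha15 was followed by the RNA-binding protein gene Rbm47 (0.991, and 0.992 without knockout 3) and by Tm9sf3 (0.965). For Spdef these were the protease genes Tmprss2 (0.984) and Habp2 (0.978), the second of which is also a Paneth marker used here. For Creb3l1 they were Mlph (0.958) and the disulfide isomerase gene Pdia5 (0.957, and 0.878 without knockout 3), for Atoh1 Zfp330 (0.976) and Ufl1 (0.964), for Klf4 Homer2 (0.948) and Cyp2c68 (0.945), and for Gfi1 Cbfb (0.911) and Chmp5 (0.895). Without knockout 3 these 16 values lay between 0.878 and 0.992. The genes had been picked for the highest r on data that include these libraries, so high values follow in part from that choice.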

How the data were processed

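RNA of 8 sorted Paneth cell pools was amplified by Smart-seq2, which copies polyadenylated RNA. The authors aligned the reads to mm10 with GSNAP and counted uniquely mapped reads per Ensembl gene with featureCounts 1.6.3, as the study's methods and processing notes state, and deposited raw counts without normalization. The strand setting is not given in the sources used here. PCR copies count separately, so the floor of 3 counts covers counting error only, whereas the 95% intervals come from the spread between libraries. Groups follow the genotype label. Replicate numbers are names. An animal number shared by the titles of control 4 and knockout 4 was ignored.

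In R 4.3.3, edgeR 4.0.16 (TMM, filterByExpr with a minimum count of 10, robust quasi-likelihood fit, Benjamini-Hochberg over 13439 genes) gave the tests. Standard errors were approximated from the F statistic. Levels per kb use the deposited exon length. Exact permutation tests used log2(normalized CPM + 0.5), and log2 for ratios. Alternatives were DESeq2 1.42.0, limma 3.58.1 with quality weights, other scalings and filters, the run of label numbers as a term, and each library left out. The functions were tested on simulated data. The 8 genes, the gene lists and the tests were chosen with earlier results of these data known. By rule, the text names from each list the genes called, the 2 highest per kb and up to 3 with the smallest p among genes whose groups do not overlap, and for each factor the 2 genes most like it with a mean of at least 10 normalized CPM. The 92 spike-in rows were left out. A gene selected by the naming rule was kept in the tests and counts but is not reported here.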

Additional observations from a re-analysis of the deposited data

Results flagged for a closer look

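In 2 of the 16 groups examined (8 factors in 2 genotypes), a single library stood so far from its group that the gap exceeded Dixon's 95% critical value for 4 samples, which chance gives in about 1 of 20 groups. Both were knockout 3. Xbp1 was at 206 normalized CPM there and between 72.9 and 81.1 in the other knockouts (gap over range 0.939). Creb3l4 was at 68.8 and between 19.1 and 22.9 in the others (0.922). Scaled to total counts instead of TMM factors, knockout 3 was still the highest library in both genes, with 130 CPM of Xbp1 against 79.6 to 102 elsewhere and 43.5 CPM of Creb3l4 against 13.9 to 28.1. In Atoh1 and Creb3l1 it lost that place on total counts, to knockout 2 and knockout 4. The gap was compared with Dixon's value on TMM-scaled levels only.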

How the results depend on the processing

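None of the 8 factors was called under any of the 17 alternatives. The number of genes called over the whole table was 25, and it became 38 at an adjusted p of at most 0.1 with no fold limit, 15 with total counts, 290 without a filter, 13 with at least 10 counts in every library, 138 with DESeq2's Wald test and 101 with limma-voom. With each library left out it ranged from 10 to 152: 11 without control 1, 12 without control 2, 10 without control 3, 15 without control 4, 11 without knockout 2 and 152 without knockout 3. limma-voom, which gave knockout 3 a weight of 0.245 against 0.795 to 1.69 elsewhere, turned the log2 fold changes of Atoh1 (−0.19), Spdef (−0.43), Xbp1 (−0.25), Creb3l1 (−0.08) and Creb3l4 (−0.15) below 0, and total counts turned those of Gfi1 (0.23) and Klf4 (0.17) above 0. With each library left out, the log2 fold change ranged from −0.21 to 0.35 for Atoh1, −0.46 to 0.15 for Gfi1, −0.38 to 0.28 for Spdef, −0.29 to 0.36 for Xbp1, −0.17 to 0.11 for Klf4, −0.06 to 0.47 for Creb3l1 and −0.18 to 0.67 for Creb3l4. Bhlha15 lay between −0.73 and −0.39 in these fits, and over all alternatives it stayed below 0, from −0.73 to −0.33, with adjusted p between 0.125 and 0.949. The cause of these changes was not tested. The study's methods describe the animals as littermates, but the labels name no litters, so no paired analysis was possible. The groups share only 1 animal number in their labels, that of control 4 and knockout 4. With the run of label numbers as a term, 24 genes and none of the 8 factors were called. Gfi1 had the fewest counts of the 8 factors, 28 to 107 per library.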
